A study of Mus musculus with 4 samples.

Results

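The CDK inhibitors and D-type cyclins that set entry into S phase were read in cultured mouse macrophages with and without the long noncoding RNA lncLy6c. They comprised 10 genes chosen by name from the pathway, out of 16375 genes listed. Cdkn1a, Cdkn1b, Cdkn2c and Cdkn2d encode the inhibitors, Ccnd1, Ccnd2 and Ccnd3 the cyclins, Cdk4 and Cdk6 their kinases, and Rb1 the substrate. Of the 10, 8 reached a mean FPKM (fragments per kilobase of gene and per 1000000 fragments) of 1 or more, and Cdk6 and Rb1 did not.

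As background, D-type cyclins bind CDK4 or CDK6, and the complexes phosphorylate the retinoblastoma protein, which releases E2F transcription factors and allows S phase genes to be transcribed. INK4 proteins bind CDK4 and CDK6 themselves and keep the cyclins off, whereas Cip/Kip proteins bind cyclin-CDK complexes and block CDK2. In bone marrow cultures, macrophage colony-stimulating factor (M-CSF) induces D-type cyclins while precursors divide, and butyrate, a short-chain fatty acid made by gut bacteria, inhibits histone deacetylases and is known in many cultured cells for raising Cdkn1a.

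RNA sequencing was performed on bone marrow-derived macrophages from wild-type (WT) mice and from mice lacking lncLy6c (LNCKO), each cultured without butyrate or with 500 µM butyrate for 24 h. Bone marrow cells of both genotypes had been grown with M-CSF, and the knockout carried a CRISPR-Cas9 deletion around lncLy6c made on the C57BL/6J background. The study describes young male or female C57BL/6 mice, and the age and sex of the donors of these cultures and the number of mice behind each are not given in the sources used here. There was 1 library in each of the 4 groups, so no difference had a replicate check, no p-value was computed, and each fold compares 2 libraries. Intervals given below are 95% intervals of counting error only. A gene is called higher or lower where its log2 change passed 0.32 in size, the fold threshold used throughout. Where 4 values follow each other they stand for WT without and with butyrate, then LNCKO without and with butyrate.

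The libraries held 53363944 to 65521713 fragments, recovered from the deposited FPKM because the values were whole multiples of 1 fragment for 16093 of 16342 genes. No gene was listed under the name of lncLy6c, so the deletion was not checked in the RNA. Fragments on the Y-linked gene Ddx3y numbered 65 and 49 in WT but 6128 and 7764 in LNCKO, so donor sex and genotype cannot be told apart. The WT butyrate library stood apart. It lay below all 3 other libraries by more than the threshold in 230 of the 6809 genes that reached a mean FPKM of 1, and above all of them in 132, whereas each other library lay below in 19 to 34 and above in 12 to 24. It is the only library of its group and cannot be left out. All 10 macrophage identity genes passed the filter, with Csf1r, the M-CSF receptor, at 38.3 to 46.6 FPKM. Genes of neutrophil precursors and B cells were also present. In these bulk samples, fewer cells of a type and less RNA per cell cannot be told apart.

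The stretches before the start sites of Cdkn1a, Cdkn1b and Cdk4 are shown because they hold short letter runs known from the sites of p53, Sp factors, NF-Y or Myc. They come from RefSeq on GRCm38.p6, + strand, and end at the base before the annotated gene. Capitals mark ACATGT, a core found in p53 half-sites, in Cdkn1a (chr17:29090729-29090975), GGGCGG, the GC box of Sp factors, and CCAAT, bound by NF-Y, in Cdkn1b (chr6:134920151-134920400), and CACGTG, the E-box of Myc and Max, with GGGCGG read on the other strand, in Cdk4 (chr10:127063285-127063533).
Cdkn1a: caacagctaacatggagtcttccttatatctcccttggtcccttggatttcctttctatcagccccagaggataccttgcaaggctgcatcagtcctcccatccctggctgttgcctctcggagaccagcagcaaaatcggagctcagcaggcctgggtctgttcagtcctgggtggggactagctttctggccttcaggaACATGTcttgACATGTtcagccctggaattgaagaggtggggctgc
Cdkn1b: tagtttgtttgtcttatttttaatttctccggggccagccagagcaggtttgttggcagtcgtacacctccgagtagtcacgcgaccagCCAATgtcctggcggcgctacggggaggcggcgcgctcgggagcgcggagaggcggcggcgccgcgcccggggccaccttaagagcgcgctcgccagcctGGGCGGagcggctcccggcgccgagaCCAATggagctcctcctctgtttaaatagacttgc
Cdk4: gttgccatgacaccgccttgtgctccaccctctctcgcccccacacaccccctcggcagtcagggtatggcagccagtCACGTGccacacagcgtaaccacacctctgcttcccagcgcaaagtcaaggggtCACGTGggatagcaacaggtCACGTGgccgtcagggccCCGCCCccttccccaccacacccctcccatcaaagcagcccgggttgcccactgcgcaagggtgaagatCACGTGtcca
Counted to the first base of the annotated gene, ACATGT began 46 and 36 bases before Cdkn1a. Another RefSeq start of Cdkn1a lies inside the annotated gene. Its window (chr17:29093519-29093768), not shown, held ACATGT at 0 places and GGGCGG at 2. Of 32851 windows of 250 bases before RefSeq starts, 4.58% held ACATGT on either strand and 0.247% held at least 2 copies. Cdk4 held CACGTG at 4 places, 171, 117, 97 and 10 bases before the gene, against 6.02% of windows with any copy and 0.429% with at least 2. In Cdkn1b, GGGCGG lay 61 bases and CCAAT 161 and 35 bases before the start, and 32.7% and 33.9% of windows held these letters. The motifs do not overlap one another in these stretches. Windows were found for 7 of the 10 genes, some at several starts. Of these genes 6 held GGGCGG, 3 CCAAT, 2 CACGTG and 1 ACATGT in any window. The stretches shown were picked because they hold these letters, so the shares of windows do not measure how unusual they are. A match describes letters only and is not a binding site.

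The level of each gene was set on exon length, as fragments per exon kilobase and per 1000000 fragments, so that genes could be compared. Exon length was the union of all annotated exons of a gene, and the order of the genes depends on it. Cdkn1a had the highest mean over the 4 libraries at 53.9, followed by Cdk4 at 41.5, Cdkn1b at 36.7 and Cdkn2d at 35.5. The D-type cyclins formed a middle tier at 22.0 for Ccnd1, 19.4 for Ccnd2 and 17.4 for Ccnd3. Rb1 at 16.3 and Cdk6 at 12.8 came next, and Cdkn2c was lowest at 7.20. Some neighbours in this order overlapped over the 4 libraries: Cdkn1a and Cdk4 shared part of their ranges, as did Cdkn1b and Cdkn2d, and Ccnd3 with both Ccnd2 and Rb1. Cdkn2c, at 4.28 to 8.42, lay under every other gene in every library.

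**Figure D1:**
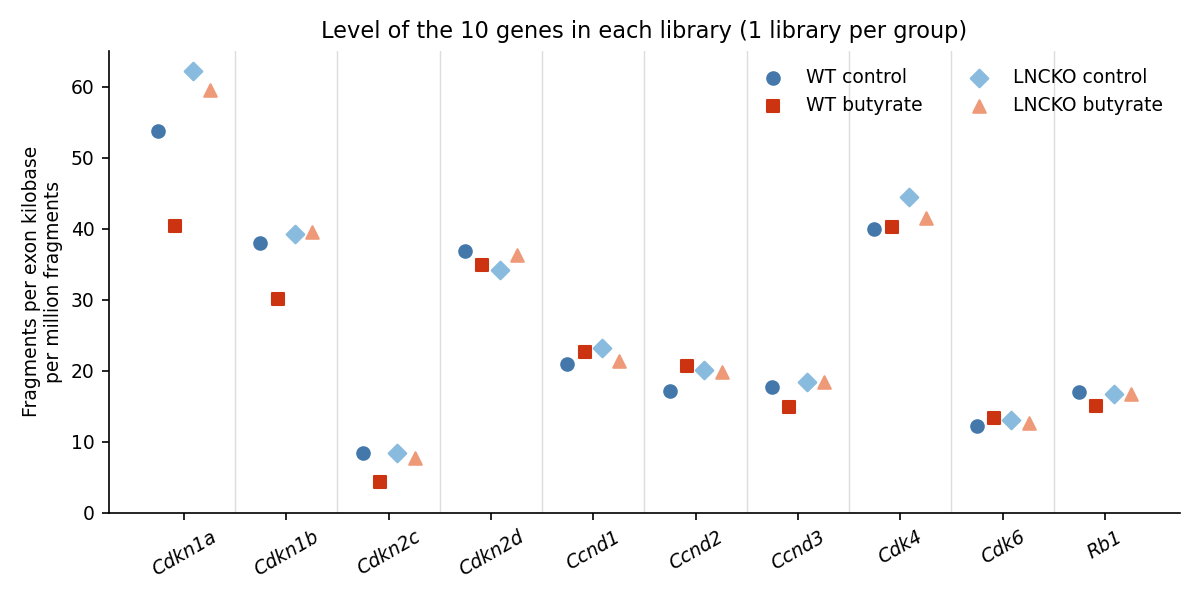
Level of each of the 10 genes (fragments per exon kilobase and per 1000000 fragments, axis from 0) in each of the 4 libraries, 1 mark per library. In the WT butyrate library Cdkn1a at 40.4, Cdkn1b and Cdkn2c at 4.28 lie under the other 3 libraries, while the marks of Cdk4, Cdk6 and Ccnd1 lie close together.

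The question of the first comparison is what butyrate changed in WT macrophages. In this contrast 3 of the 4 inhibitors were lower with butyrate, past the threshold: Cdkn1a, Cdkn1b and Cdkn2c. Cdkn2d, the cyclins, Cdk4, Cdk6 and Rb1 stayed within it. Of the 8 genes passing the filter, 3 were lower and 0 higher, where 6.52% of all 6809 genes were lower and 4.64% higher. The median log2 change of all 10 genes was -0.12, against -0.05 over all genes. When libraries were scaled by their median ratio, 2 of the 8 were lower and 1 higher: Cdkn1b no longer reached the threshold at a log2 change of -0.28, and Ccnd2 passed it at 0.33. That scaling also turned the split of all genes from 316 higher and 444 lower to 455 higher and 281 lower.

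Cdkn1a (ENSMUSG00000023067, chr17:29090976-29100727, + strand, GRCm38) encodes p21, the Cip/Kip inhibitor best known as a p53 target. Its FPKM was 19.6 without and 14.7 with butyrate in WT, and 22.7 without and 21.7 with butyrate in LNCKO, from 8488 to 13844 fragments. The WT butyrate library was the low one, and the other 3 lay within 1.16-fold of each other. On the log2(FPKM + 0.1) scale the change with butyrate was -0.41 in WT and -0.06 in LNCKO. On fragments alone, the WT log2 ratio was -0.41 with an interval of -0.46 to -0.37. The WT change ranked at 220 from the lowest among 6809 genes. Butyrate did not go with a higher Cdkn1a level in either genotype.

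Cdkn1b (ENSMUSG00000003031, chr6:134920401-134925513, + strand) encodes p27, the Cip/Kip inhibitor that accumulates as cells leave the cycle. Its 4 FPKM values were 33.9, 26.7, 35.0 and 35.2. The other 3 libraries lay within 1.04-fold of each other, and WT butyrate below them. The log2 change with butyrate was -0.34 in WT, with an interval on fragments of -0.38 to -0.30, and 0.01 in LNCKO. No annotated gene overlaps Cdkn1b, Cdkn2c or Cdkn2d.

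Cdkn2c (ENSMUSG00000028551, chr4:109660876-109667189, - strand) encodes the INK4 inhibitor p18. It had 1276 fragments without and 680 with butyrate in WT, and 1195 and 1363 in LNCKO, which gave an FPKM of 3.58, 1.82, 3.55 and 3.29. The WT butyrate level was 0.508 of the WT control level, with an interval of 0.462 to 0.558. The log2 change was -0.94 in WT and -0.10 in LNCKO, and the WT value ranked at 20 from the lowest of 6809 genes. It was the widest change among the 10 genes, and the only one of them past 1.5-fold.

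Genes of B cells moved in the same library. Of 10 B cell genes, 6 passed the filter, and 4 of these were lower with butyrate in WT while 0 were called in LNCKO. Over all genes 6.52% were lower in WT. Their summed FPKM over the 10 genes was 220 without and 167 with butyrate in WT, and 226 and 227 in LNCKO. Rag1, which cuts antigen receptor genes in lymphoid precursors, changed by -2.06 in WT and -0.15 in LNCKO on the log2 scale. Vpreb3, made in B cell precursors, changed by -0.85 and -0.10. None of the 6 passing markers was at 0 in any library. The part of B lineage cells in the values of Cdkn2c, Cdkn1a and Cdkn1b was not tested.

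Cdkn2d (ENSMUSG00000096472, chr9:21288410-21291407, - strand) encodes p19, another INK4 inhibitor. It had an FPKM of 19.4 and 18.3 in WT and of 18.0 and 19.0 in LNCKO, control first. All 4 libraries lay within 1.08-fold, with WT butyrate between the others. The log2 change with butyrate was -0.08 in WT and 0.08 in LNCKO. Unlike Cdkn2c, this INK4 gene thus did not have WT butyrate as its lowest library.

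**Figure D2:**
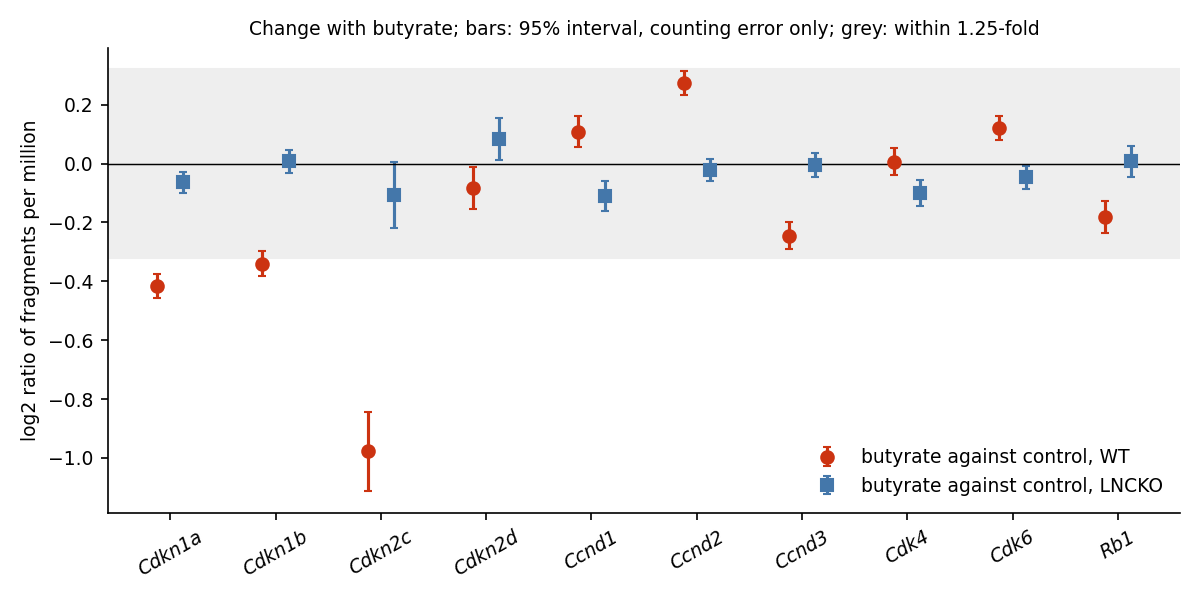
Log2 ratio of fragments per 1000000, butyrate over control, for each of the 10 genes in WT and in LNCKO. Bars are 95% intervals of counting error only and the grey band marks changes within the threshold. Cdkn2c at -0.98, Cdkn1a at -0.41 and Cdkn1b at -0.34 in WT lie below the band, and every LNCKO point lies inside it.

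Ccnd1 (ENSMUSG00000070348, chr7:144929931-144939925, - strand) encodes cyclin D1. Its FPKM was 9.87, 10.6, 10.9 and 10.1 over the 4 libraries, and all 4 lay within 1.10-fold. The log2 change with butyrate was 0.11 in WT and -0.11 in LNCKO. Ccnd2 (ENSMUSG00000000184, chr6:127125162-127152193, - strand), which encodes cyclin D2, had an FPKM of 5.96, 7.21, 7.001 and 6.89 in the same order. Here WT control was the low library, since the other 3 all lay above it. The log2 change was 0.27 in WT, with an interval on fragments of 0.23 to 0.31, and -0.02 in LNCKO.

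Ccnd3 (ENSMUSG00000034165, chr17:47505051-47599691, + strand) encodes cyclin D3. It had an FPKM of 1.64 and 1.38 in WT, control first, and of 1.71 and 1.71 in LNCKO. WT butyrate was lowest and the other 3 lay within 1.05-fold. The log2 change was -0.23 in WT and -0.00 in LNCKO, within the threshold in both. Its span overlaps 361 bases of Bysl on the other strand, and Ccnd1 overlaps 1771 bases of LTO1. Neither neighbour had more fragments than its cyclin, with 1447 to 1663 fragments on Bysl and 1104 to 1389 on LTO1. Whether the counting used strand is not given in the sources used here.

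Measured on exon length, the D-type cyclins summed to 55.7 and 58.2 in WT, control first, and to 61.7 and 59.6 in LNCKO. Ccnd1 held 35.9% to 38.8% of that sum. Ccnd2 held 30.7% in WT control and 35.6% in WT butyrate, and 32.6% and 33.2% in the LNCKO libraries. Ccnd3 held 31.7% in WT control and 25.6% in WT butyrate, against 29.9% and 30.9% in LNCKO. The cyclin sum therefore differed little, while in WT butyrate Ccnd2 held more of it and Ccnd3 less than in any other library. The shares depend on the length used: on genomic span, Ccnd1 held 54.0% to 56.5% and Ccnd3 7.19% to 9.37%.

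The 4 inhibitors together gave 137 fragments per exon kilobase and per 1000000 fragments without and 110 with butyrate in WT, and 144 and 143 in LNCKO. The ratio of summed inhibitor level to summed cyclin level was 2.46, 1.88, 2.33 and 2.40 in the same order. WT butyrate was thus the low library for inhibitor RNA and not for cyclin RNA.

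**Figure D3:**
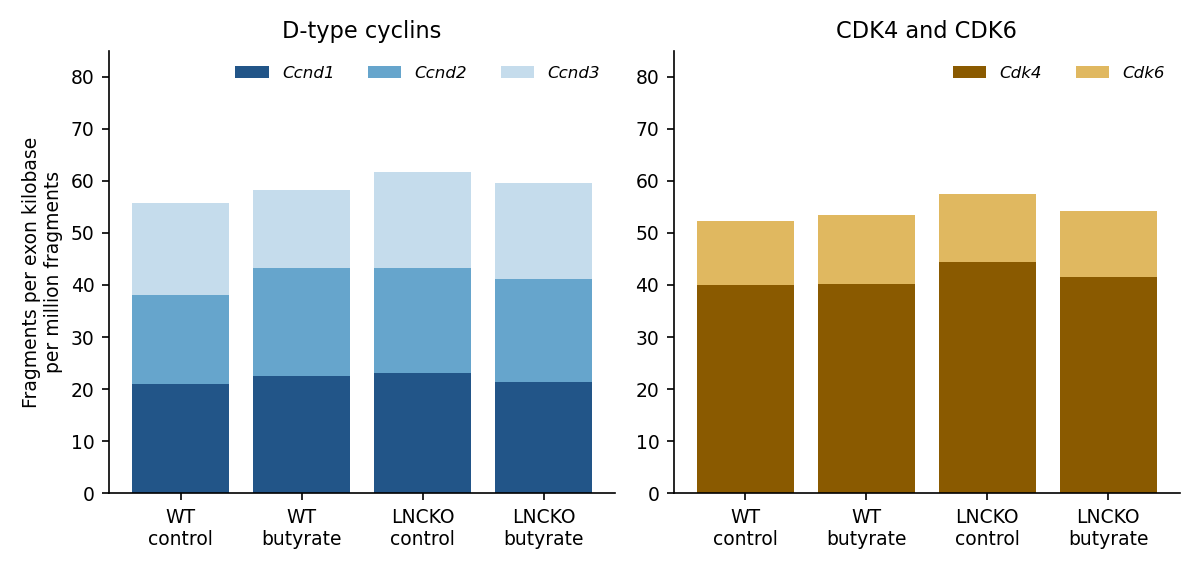
Level on exon length (fragments per exon kilobase and per 1000000 fragments, axis from 0) of the D-type cyclins and of Cdk4 and Cdk6 in each library. In WT butyrate Ccnd2 is at 20.7 and Ccnd3 at 14.9, against 17.1 and 17.7 in WT control, and Cdk4 is above Cdk6 in every library.

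Cdk4 (ENSMUSG00000006728, chr10:127063534-127067920, + strand) encodes a catalytic partner of the D-type cyclins. Its FPKM was 29.6, 29.8, 32.9 and 30.7, highest in LNCKO control. The log2 change with butyrate was 0.01 in WT and -0.10 in LNCKO, and the WT value turned negative, at -0.05, when FPKM were rescaled to a fixed sum. Myc, which encodes a transcription factor of the E-box type, had an FPKM of 8.28, 15.6, 11.2 and 10.4. Its highest library was WT butyrate.

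Cdk6 (ENSMUSG00000040274, chr5:3341485-3531008, + strand), the other D-type cyclin kinase, had 9623 to 11615 fragments per library but an FPKM of 0.9004, 0.979, 0.965 and 0.935, since the deposited values divide by its span of 189524 bases. The log2 change was 0.11 in WT and -0.04 in LNCKO. Of the Cdk4 and Cdk6 levels summed on exon length, Cdk4 held 75.2% to 77.3%. On genomic span Cdk4 held 96.82% to 97.15%, so this split also depends on the length used. On either length the makeup of the kinase pair was close in all 4 libraries. The Cdk4 span overlaps 641 bases of Tspan31 on the other strand, which had 5056 to 5875 fragments.

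Rb1 (ENSMUSG00000022105, chr14:73183673-73325822, - strand) encodes the retinoblastoma protein, the substrate of the kinases. Its FPKM was 0.718, 0.633, 0.705 and 0.709 in the order given above. WT butyrate was lowest and the other 3 lay within 1.02-fold. The log2 change was -0.16 in WT and 0.01 in LNCKO, both within the threshold. Lpar6 lies inside its span and Rcbtb2 overlaps one end, both on the other strand. Lpar6 had 6859, 6098, 6172 and 7139 fragments, with WT butyrate below its WT control as for Rb1. Rcbtb2, whose overlap covers 24171 bases, had 8852, 12424, 9161 and 10831, with WT butyrate above WT control. The part of either gene in the Rb1 value was not tested. Noncoding or other transcripts also overlap Rb1 (Gm17233 and Mir687), Cdk6 (Gm17590 and Gm42435), Ccnd2 (Gm43126 and 9330179D12Rik) and Cdkn1a (AC167363.2), and they were not analysed here.

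In LNCKO macrophages 0 of the 8 passing genes were called in either direction with butyrate, where 1.87% of genes were higher and 1.23% lower. Rescaling FPKM to a fixed sum gave 500 higher and 545 lower in place of 127 and 84, with 0 of the 10 genes called. The filter and the added 0.1 then applied to the rescaled values, which are larger, so genes of lower FPKM also entered these counts. The median log2 change of the 10 genes was -0.03, against -0.02 over all genes, and single values ran from -0.11 for Ccnd1 to 0.08 for Cdkn2d. The difference of the changes, WT minus LNCKO on the log2 scale, was -0.84 for Cdkn2c, -0.35 for Cdkn1a, -0.35 for Cdkn1b and 0.29 for Ccnd2. With 1 library a group, the spread between cultures is unknown and the difference between genotypes was not tested. Over all genes the SD of the log2 changes was also wider in WT, at 0.25, than in LNCKO, at 0.17.

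**Figure D4:**
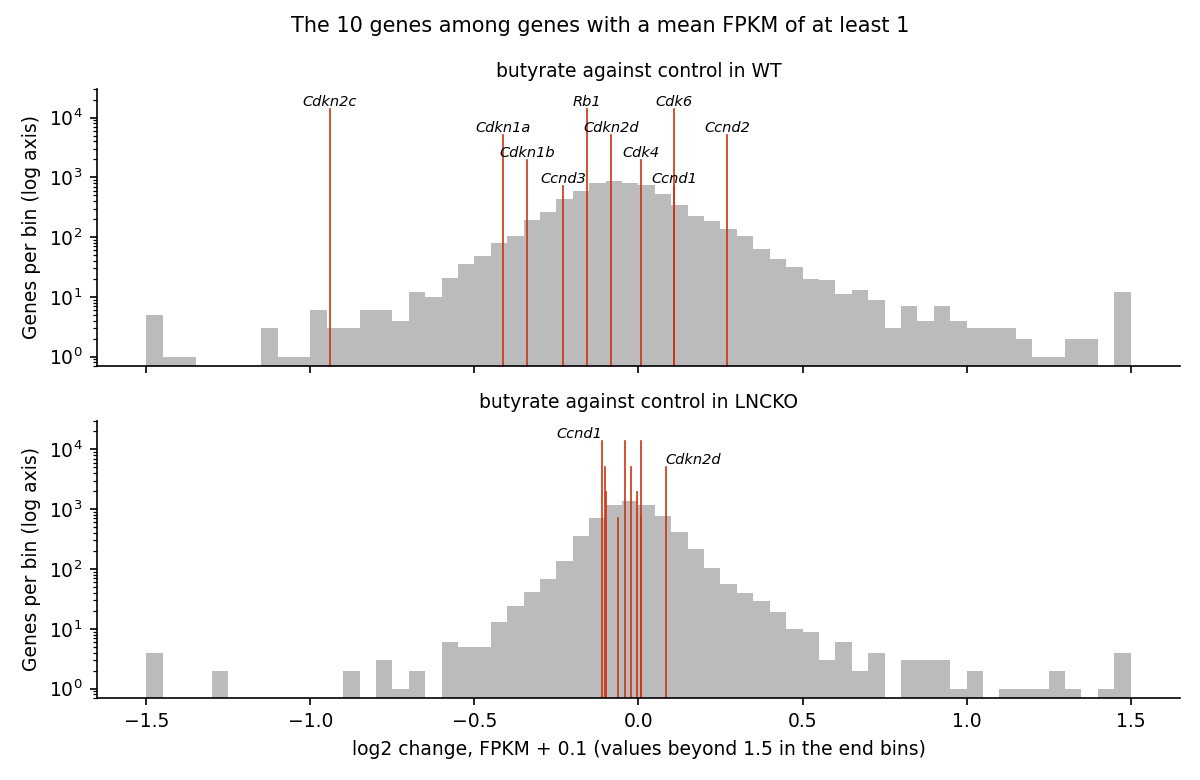
Histogram of log2 changes (FPKM + 0.1) with butyrate over the genes that passed the filter, in WT and in LNCKO, with genes per bin on a log axis and a vertical line for each of the 10 genes. In WT the lines run from -0.94 for Cdkn2c to 0.27 for Ccnd2, and in LNCKO from -0.11 for Ccnd1 to 0.08 for Cdkn2d.

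Without butyrate the genotypes were close for these genes. Of the 8 passing genes 0 were higher and 0 lower in LNCKO control than in WT control, where 2.6% and 1.87% of genes were. The widest log2 differences, LNCKO minus WT, were 0.23 for Ccnd2 and 0.21 for Cdkn1a. With butyrate, Cdkn2c, Cdkn1a and Cdkn1b were higher in LNCKO than in WT, by log2 values of 0.82, 0.56 and 0.39, and 0 of the 8 were lower. In that contrast 7.03% of all genes were higher and 4.45% lower, and scaling by the median ratio turned this split from 479 higher and 303 lower to 320 higher and 420 lower, with the same count of 3 higher among the 8. It shares the WT butyrate library with the WT contrast above, so its 3 calls rest on the same low library. Of the 6 passing B cell genes, 5 were also higher in LNCKO with butyrate. Stromal collagen Col1a1 differed between the control libraries by -2.01, and hemoglobin genes by 1.74 to 2.28, and their part in these differences was not tested.

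Other genes of the pathway were read from lists chosen by function. Over all genes, 6.52% were lower and 4.64% higher with butyrate in WT, with a median log2 change of -0.05. In LNCKO against WT with butyrate, 7.03% were higher and 4.45% lower. Of 13 genes for cyclins, CDKs and their activators that act after the restriction point, 9 passed the filter. Of these 9, 4 were lower with butyrate in WT and 0 higher, with a median log2 change of -0.28. Ccnb2, a mitotic cyclin, changed by -0.68, and Cdc25b, the phosphatase that activates CDK1, by -0.50. Ccne2 at -0.44 and Ccna2 at -0.42, cyclins of S phase entry and passage, completed the group, whereas Ccne1 at 0.04 was the one gene above 0. In LNCKO 0 of the 9 were called and the median was -0.05, from Cdc25a at -0.14 and Ccnb2 at -0.13 to Ccne1 at 0.06 and Cdc25b at 0.02. Between the genotypes 0 were called without butyrate, with Cdc25a at 0.24 and Ccne1 at 0.19, and Ccnb2 at -0.07 and Ccne2 at -0.04. With butyrate 5 were higher in LNCKO, led by Cdc25b at 0.62 and Ccnb2 at 0.49. Thus 3 of the 4 inhibitors and Ccnb2, Ccne2 and Ccna2 were all lower with butyrate in WT, while Cdkn2d, Ccne1 and Ccnb1 were not called.

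Of 14 p53 target genes, 10 passed. Of these, 5 were lower and 0 higher with butyrate in WT, where 6.52% and 4.64% of all genes were. Their median log2 change was -0.27. Btg2, an antiproliferative cofactor, changed by -0.51 and Bbc3, which encodes the apoptosis protein PUMA, by -0.43, followed by Trp53inp1 at -0.41, Ccng1 at -0.40 and Plk2 at -0.32. Mdm2, the ubiquitin ligase of p53, was at -0.06, Aen at 0.06 and Gadd45a at 0.03. In LNCKO the median was -0.07 and 1 gene was higher, Gadd45a at 0.40, with Sesn2 at -0.19 and Btg2 at -0.17 lowest. Phlda3 was lower past the threshold in both genotypes, at -0.55 and -0.46, but at a mean FPKM of 0.644 it was under the filter, with 96 to 142 fragments. In LNCKO against WT, Plk2 was higher without butyrate at 0.41, and with butyrate 3 genes were higher: Plk2 at 0.66, Btg2 at 0.58 and Gadd45a at 0.43. Cdkn1a was thus lower in WT butyrate, as were 5 of these 10 genes, while the other 5 were not called. Trp53 itself was at -0.24 in WT, within the threshold. The part of p53 in these values was not tested.

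Of 10 E2F and DP genes 5 passed, and E2f2, an activator E2F, was lower in WT at -0.40, ahead of E2f8 at -0.30, with Tfdp1 at 0.20 and E2f1 at 0.16 at the other end. In LNCKO 0 of the 5 were called, from -0.16 for E2f8 to 0.01 for both Tfdp1 and E2f2. None was called between the genotypes, the widest value being 0.30 for E2f2 with butyrate. Of 14 E2F target genes, which encode the replication machinery, 12 passed and 0 were called in either genotype, with medians of -0.03 in WT and -0.13 in LNCKO. Tyms, which makes thymidylate, at -0.30 and Rrm2, a ribonucleotide reductase subunit, at -0.29 were lowest in WT, and Dut at 0.30 and Uhrf1 at 0.10 highest. In LNCKO 11 of the 12 were below 0, Uhrf1 and Mcm5 lowest at -0.19 and Tyms alone above at 0.13. Between the genotypes 1 was called, Tyms, higher in LNCKO with butyrate at 0.46.

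Among the remaining pocket proteins and inhibitors, 2 of 6 passed: Rbl2, which encodes p130, was lower in WT at -0.34, and Rbl1, which encodes p107, was at -0.16, with LNCKO values of -0.12 and 0.09. Neither differed past the threshold between the genotypes. Cdkn2a had 0, 11, 0 and 9 fragments, where a count of 0 allows up to 3, and Cdkn2b had 33, 0, 8 and 17. These INK4 genes thus had far fewer fragments than Cdkn2c and Cdkn2d in every library. Cdkn3, a phosphatase that acts on CDKs, had 709, 427, 630 and 839 fragments, just under the filter at a mean FPKM of 0.997, and its log2 change was -0.72 in WT but 0.11 in LNCKO.

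Of 12 gene symbols for p27 and cyclin D turnover, all but Skp1a were listed, with Skp1 among the 11 listed. Of these 11, 6 passed and 0 were called in any contrast. Cks1b, the cofactor of the p27 ubiquitin ligase, was at -0.15 in WT and -0.11 in LNCKO, and Rbx1, a ligase subunit, at -0.16 and -0.07. Of 14 transcription factors of the Cdkn1a and D-type cyclin genes, 12 passed. Myc was the 1 gene called in WT, higher at 0.90, and none was called in LNCKO, where Myc was at -0.10 and the ends were Egr1 at -0.27 and Mxd1 at 0.22. Mxd1, a partner of Max that opposes Myc, was at 0.31 in WT, and Klf4 at -0.31 and Trp53 at -0.24 were lowest. Between the control libraries Egr1 at 0.62 and Myc at 0.43 were higher in LNCKO and Klf4 at -0.32 was lower. With butyrate Egr1 was higher at 0.57 and Myc lower at -0.58.

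**Figure D5:**
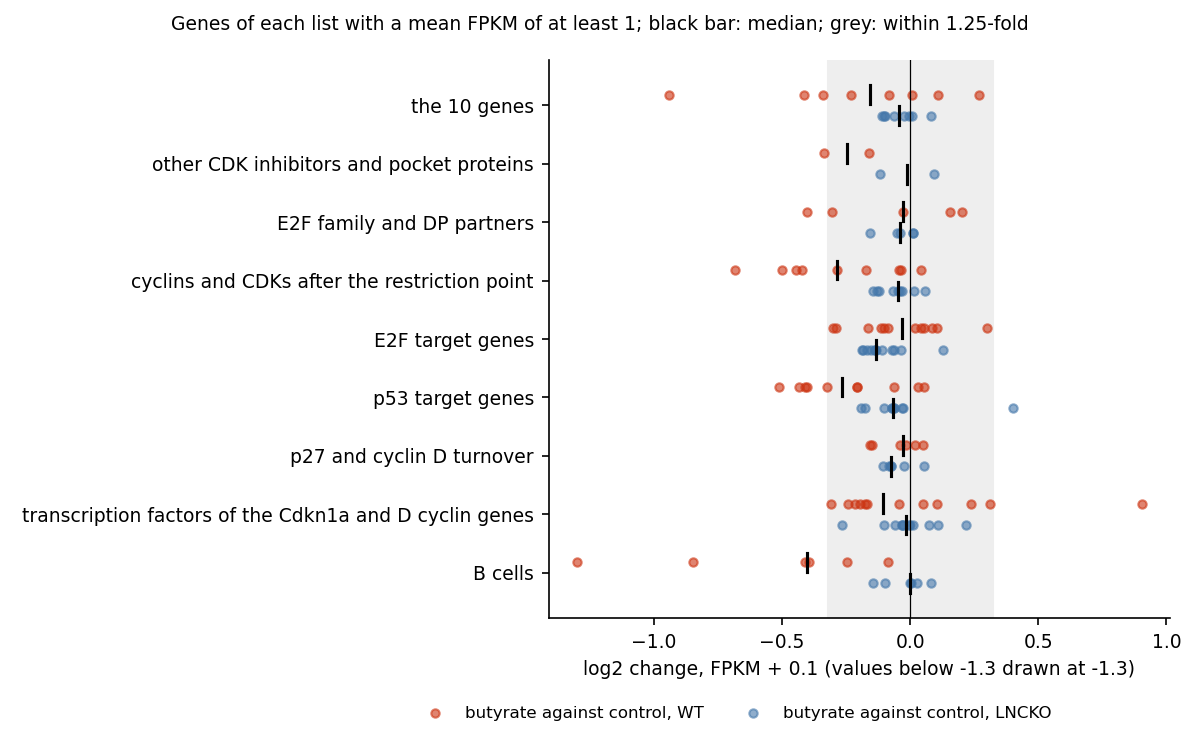
Log2 change (FPKM + 0.1) with butyrate in WT and in LNCKO for each gene that passed the filter, by list, 1 point per gene, with a black bar at the median and a grey band for changes within the threshold. The WT medians were -0.28 for the later cyclins, CDKs and their activators, -0.27 for the p53 targets and -0.40 for the B cell genes. They lie left of the LNCKO medians at -0.05, -0.07 and 0.00, and Rag1 at -2.06 is drawn at the left end.

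The other marker lists were summed in FPKM per library. Macrophage identity genes summed to 2584 and 3515 in WT, control first, and to 2213 and 1489 in LNCKO, most of it Lyz2, which changed by 0.54 with butyrate in WT and -0.89 in LNCKO. Neutrophil and precursor genes summed to 2668, 3086, 2327 and 2240 in the same order, and T and NK cell genes to 14.7, 19.7, 17.7 and 16.6. Most of the T and NK sum was Nkg7, at 10.53, 15.6, 13.28 and 11.85 FPKM. Of the 3 passing genes of that list, 1 was above 0 and 2 below 0 with butyrate in WT. Erythroid genes summed to 8.10, 9.43, 32.1 and 87.7, with Slc4a1 at 0 in all libraries, stromal genes to 11.4, 10.7, 3.22 and 6.46, and mast cell and basophil genes to 46.6, 35.2, 72.2 and 71.3. Of these sums, only that of mast cells and basophils was, like the B cell sum, lowest in WT butyrate. Most of it was Prss34, at 38.0, 29.3, 58.0 and 56.9 FPKM. Of the 4 passing genes of this list, 2 were above 0 and 2 below 0 with butyrate in WT. The part of these cells in the inhibitor values was not tested.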

How the data were processed

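Total RNA of 4 macrophage cultures was sequenced as paired-end reads. The authors deposited FPKM for 16375 genes, 1 column per library, and the submitters' processing notes name STAR 2.5.0c, Picard 1.126, bedtools 2.17.0 and HTSeq 0.6.0 with GRCm38, without roles. The labels and the study name different kits and sequencers, and the headers of the LNCKO columns do not spell the condition, so groups follow the sample titles. FPKM times gene span (GENCODE M21) gave whole fragments, within 0.02, for 98.5% of matched genes. These counts have intervals (exact binomial, conditional) of counting error only. Genes with long introns have low FPKM, so levels were compared on exon length. Whether introns were counted is not given in the sources used here.

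Changes were computed as log2(FPKM + 0.1), which understates low genes, and called past a log2 value of 0.32 at a mean FPKM of at least 1. With 1 library a group, no count test was run. Simulated libraries of 6801 genes held counting error only. In them, 100 of 100 genes raised and 100 of 100 lowered 2-fold were called, and 9 of 6601 unchanged ones. The simulation held no spread between cultures and no change smaller than 2-fold, so it gives no error rate for these data. Alternatives were a pseudocount of 1 or none, scaling by the median ratio or to a fixed sum, other filters and 1.5-fold.

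The genes and lists were chosen with earlier results of these data known. Of each pathway list the text names genes past that threshold in both genotypes in the same direction and, of those passing the filter, the 2 with the largest change in each direction per contrast. Where these stayed within the threshold some are left unnamed. Cdkn2a, Cdkn2b, Cdkn3, Ddx3y and further called or marker genes, and values given for context, were added after their values were seen. Analyses used Python 3.11.15, pandas 2.3.3, numpy 2.4.6, scipy 1.17.1 and matplotlib 3.10.9.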

Additional observations from a re-analysis of the deposited data

Results flagged for a closer look

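Among the 10 genes, 3 had log2 changes with butyrate of opposite sign in WT and LNCKO with both counting intervals clear of 0. These were Cdkn2d at -0.08 in WT and 0.08 in LNCKO, Ccnd1 at 0.11 and -0.11, and Cdk6 at 0.11 and -0.04. All these values were within the threshold for a call, each comes from 1 library per group, and the difference between the genotypes was not tested.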

How the results depend on the processing

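No paired analysis was possible because each group had 1 library, and no library could be left out without emptying its group. Depth limits only the least abundant genes here, and the spread between cultures is unknown. Alternative values of single changes of the 10 genes were set against the reach of the counting interval to either side of its value. Of these, 161 moved by no more than that reach, 39 moved by more and 0 reversed among called values. With scaling by the median ratio, 1 of the 10 genes was higher with butyrate in WT and 2 were lower. At a mean FPKM of at least 5, which leaves out Cdkn2c, 2 were lower with butyrate in WT and 2 higher in LNCKO than in WT with butyrate, and rescaled FPKM gave 4 higher in the latter. At 1.5-fold, 1 was lower with butyrate in WT and 1 higher in LNCKO than in WT with butyrate, Cdkn2c in each case. Values near 0, such as Cdk4 in WT, changed sign with the scaling. Rescaling FPKM to a fixed sum moved the median of all genes to -0.11 with butyrate in WT and to 0.10 for LNCKO against WT with butyrate.

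Counts over all genes moved more. With butyrate in WT, 316 genes were higher and 444 lower, where a pseudocount of 1 gave 201 and 194, rescaled FPKM 827 and 1636, a mean FPKM of at least 5 119 and 120, no filter 1119 and 1111, and 1.5-fold 92 and 68, and 281 were lower with the median ratio. In LNCKO, 127 higher and 84 lower became 69 and 31, 500 and 545, 34 and 13, 630 and 474, and 36 and 15 under the same settings, and 69 and 44 among genes with a mean of at least 1000 fragments, a filter chosen after seeing the data. For LNCKO against WT without butyrate, 177 and 127 became 84 and 67, 702 and 525, 45 and 29, 713 and 655, and 42 and 32, with 82 lower at 1000 fragments. With butyrate, 479 and 303 became 260 and 169, 1505 and 822, 149 and 93, 1176 and 1089, and 106 and 88. The filters and thresholds change which genes are tested or called. Rescaling to a fixed sum raised all values, so the filter let in genes of lower FPKM and the added 0.1 weighed less. The cause of the other shifts was not tested.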
